A study of Homo sapiens with 6 samples.

Results

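The EGR, NR4A and IER immediate early genes described here are 10 genes, namely EGR1, EGR2, EGR3, NR4A1, NR4A2, NR4A3, IER2, IER3, IER5 and BTG2. They were found by exact gene symbol among the 24480 symbols of the deposited table. All 10 passed the filter on low values, a mean of at least 37.7 normalized read counts, which left 12939 tested genes. The 6 RNA-seq libraries came from LN229, an established cell line of human glioblastoma. In 3 libraries the cells had been transduced with an empty vector, and in the other 3 with a construct that overexpresses LACTB, a mitochondrial protein related to bacterial beta-lactamases. No treatment, serum change or time point is given in the labels, which also do not say whether the cells were clones or whether a group's 3 libraries stem from separate cultures. The p-values below therefore rest on library-to-library spread alone, and that spread may be technical.

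Immediate early genes are genes whose transcription starts within minutes of a growth factor, serum, stress or neuronal signal, without new protein synthesis. ERK and p38 kinases act on ternary complex factors bound with SRF at CArG boxes and on CREB at cyclic AMP response elements, and the transcripts decay fast. EGR1, EGR2 and EGR3 encode zinc finger transcription factors that bind the same GC-rich motif. NR4A1 (Nur77), NR4A2 (Nurr1) and NR4A3 (Nor1) are orphan nuclear receptors that can bind the NBRE motif without a partner receptor. IER2, IER3 and IER5 share the immediate early name but are not one protein family, and BTG2 is an antiproliferative protein that brings the CCR4-NOT deadenylase to mRNAs and is a known p53 target.

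Promoter sequence was matched in RefSeq (GRCh38.p14) for 7 of the 10 genes, in 10 windows of 250 bases before to 50 after a transcript start, since EGR2 has 3 windows and NR4A1 has 2. EGR3, NR4A2 and IER3 were not matched. The 190 bases from position -220 to position -31 are shown for 4 genes, counted from the start at 0. EGR1 and EGR2 are shown because both carry a CArG box, and EGR2 rose with LACTB while EGR1 did not pass the test, NR4A3 because it had the largest fall, and BTG2 because it holds an EGR motif. Capitals mark a CArG box, a CRE core (TGACG), an ETS site (CCGGAA) or an EGR site (GCGTGGGCG or GCGGGGGCG), read on both strands.
EGR1, chr5:138465259-138465448, plus strand: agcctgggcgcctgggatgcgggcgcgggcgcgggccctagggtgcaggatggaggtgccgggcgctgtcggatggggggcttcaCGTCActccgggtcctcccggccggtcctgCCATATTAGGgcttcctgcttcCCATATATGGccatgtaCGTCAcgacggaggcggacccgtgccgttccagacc
EGR2, chr10:62816397-62816586, minus strand: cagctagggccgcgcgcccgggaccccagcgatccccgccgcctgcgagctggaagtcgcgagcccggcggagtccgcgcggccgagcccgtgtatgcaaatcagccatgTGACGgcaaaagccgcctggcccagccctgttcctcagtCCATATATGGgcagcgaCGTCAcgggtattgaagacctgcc
NR4A3, chr9:99821665-99821854, plus strand: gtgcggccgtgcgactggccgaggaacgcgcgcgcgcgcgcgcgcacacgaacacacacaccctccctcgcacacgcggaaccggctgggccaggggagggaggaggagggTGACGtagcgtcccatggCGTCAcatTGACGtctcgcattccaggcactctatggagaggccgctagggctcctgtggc
BTG2, chr1:203305299-203305488, plus strand: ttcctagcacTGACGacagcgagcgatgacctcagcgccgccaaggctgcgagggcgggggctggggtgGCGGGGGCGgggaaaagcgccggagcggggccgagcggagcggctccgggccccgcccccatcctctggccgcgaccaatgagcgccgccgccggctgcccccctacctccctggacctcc

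The EGR1 stretch holds 2 CArG boxes, at -105 to -96 and at -83 to -74, and the EGR2 stretch holds 1, at -71 to -62, with the same 10 letters as the second of EGR1. A CArG box stood in 1.29% of the 35116 RefSeq windows of this length and in 2 of the 10 member windows. The CRE core was found in 5 of the 10 member windows, 1 each for EGR1, EGR2, NR4A3, IER2 and BTG2, against 24.6% of all windows. NR4A3 held 4 CRE cores, the last lying past the stretch shown. An ETS site was found in 3 of the 10 member windows, 1 each for NR4A1, IER2 and IER5 (17.2% of all windows). An EGR site was found in 1 of the 10, that of BTG2 (5.77% of all windows). The NBRE (AAAGGTCA) was in none of the 10 windows and in 1.22% of all. These matches describe letters in a window and do not show binding.

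Transcripts of LACTB itself, which check the labels, were at 458, 515 and 393 normalized counts with vector and at 4268, 4078 and 4203 with LACTB. Column totals ran from 34907025 to 41384269 normalized counts and every LACTB total lay below every vector total, so each difference below was also computed under other scalings. The median log2 difference of all tested genes was 0.05 as deposited, -0.09 after median centring, 0.01 after quantile normalization and 0.24 with equal column totals. Of the glial and glioma markers NES, VIM, CD44, S100B and SOX2 were all well expressed, the lowest of them being SOX2 at 1131 ± 146 in vector and 2674 ± 313 in LACTB cells. SOX2 rose by 1.24 on the log2 scale and S100B fell from 33778 ± 5580 to 14499 ± 2186, by 1.22. Of the 8 markers listed 7 were tested, of which 4 rose and 2 fell (median 0.39). The percentage called was 85.7%, beside 51.9% of all tested genes. OLIG2, also on this list, is not described here. GFAP stood at 74.5 ± 1.89 and 122 ± 3.82, and the astrocyte water channel gene AQP4 was at 4.25 ± 4.14 and 1.04 ± 1.80 (SD, n = 3 each). The immune markers other than CD68 had group means of at most 32.9, and summed levels of 7 immune markers were 1048 to 1176 in vector and 1599 to 1700 in LACTB libraries, nearly all of it CD68. PTPRC, the pan-leukocyte marker, had means of 5.65 and 2.08. Summed endothelial markers were 246 to 315 and 180 to 208, epithelial markers 142 to 226 and 247 to 365, and fibroblast markers 1160 to 1413 and 1805 to 1870 normalized counts. Of 6 fibroblast markers tested 2 rose and 2 fell. Among them LUM was higher by 1.85 on the log2 scale, and COL1A2 fell by 2.58. COL1A2 passed the filter only through its vector level, since its LACTB mean of 36.4 lay below the 37.7 normalized counts required. With 37.7 normalized counts added before the log in place of 1, its difference was -1.78. The part of these markers in the results was not tested.

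With LACTB, 6 of the 10 genes were lower, 1 was higher and 3 did not pass. NR4A1, NR4A2, NR4A3, IER2, IER5 and BTG2 fell, EGR2 rose, and EGR1, EGR3 and IER3 did not pass (limma, two-sided, Benjamini-Hochberg adjusted p under 0.05 over all tested genes). Over all tested genes the same rule called 51.9% in either direction, 24.6% lower and 27.4% higher. At least 2-fold changes among these calls were the rise of EGR2 and the falls of NR4A1 and NR4A3, where 6.34% of all tested genes rose and 4.48% fell by that much (10.8% together). NR4A3 was tested only through its vector level, so these counts and the median are descriptions. The median log2 difference of the 10 genes was -0.64, beside 0.05 for all tested genes. The vector and LACTB libraries did not overlap for 6 of the 10, which compares with 59.7% of all tested genes. In bulk RNA, fewer cells that express a gene and less RNA per cell cannot be told apart.

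**Figure D1:**
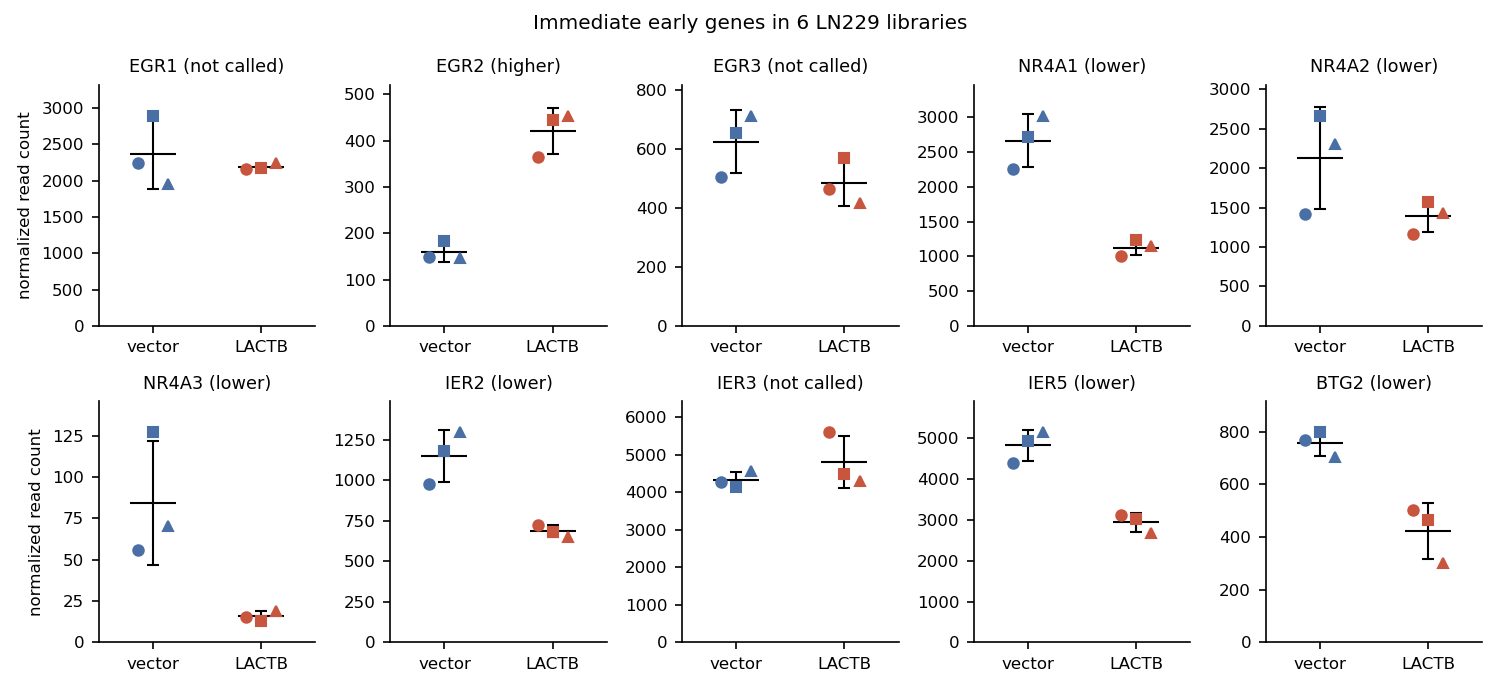
Normalized read count of each of the 10 genes in the 3 vector libraries (blue) and the 3 LACTB libraries (red), with circles, squares and triangles for libraries 1, 2 and 3 and bars for the mean ± SD. EGR2 lies higher in all 3 LACTB libraries, NR4A1, NR4A3, IER2, IER5 and BTG2 lie lower in all 3, and EGR1, EGR3, NR4A2 and IER3 overlap between groups.

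Among the EGR genes, EGR2 (chromosome 10, 62811996 to 62919900, minus strand, GRCh38, GENCODE 29) rose 2.64-fold. EGR2 is known for its part in hindbrain segmentation and in Schwann cell myelination. It was at 149, 183 and 146 normalized counts with vector and at 364, 445 and 453 with LACTB. All 3 LACTB values lay far above the vector range. The means were 159 ± 20.6 and 421 ± 49.2, and the log2 difference was 1.40 (SE 0.18, 95% interval 1.01 to 1.78, limma adjusted p = 2.4e-06). The 50 tested genes nearest to EGR2 on the chromosome had a median difference of 0.36 (0.22 with length and GC removed). Of them 54% passed in either direction, and their part in the EGR2 result was not tested.

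EGR1 (chromosome 5, 138465490 to 138469315, plus strand), the most widely studied EGR factor and a growth factor target, did not pass. It stood at 2250, 2892 and 1959 in vector and at 2159, 2180 and 2240 in LACTB libraries. All 3 LACTB values lay inside the vector range, and vector library 2 was the highest of the 6. The means were 2367 ± 477 and 2193 ± 42.3, and the log2 difference of -0.09 had a 95% interval of -0.36 to 0.18 (limma adjusted p = 0.57). The sign of this difference changed with equal column totals (0.10), with transcript length and GC content removed (0.12) and without vector library 2 (0.063).

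EGR3 (chromosome 8, 22687659 to 22693302, minus strand), an EGR factor known from muscle spindle development and lymphocytes, was at 507, 657 and 713 in vector and at 464, 571 and 419 in LACTB libraries. LACTB library 2 lay above vector library 1, so the groups overlapped. The log2 difference was -0.36 (SE 0.17, 95% interval -0.71 to -0.02), and it missed the threshold after adjustment over all genes (limma adjusted p = 0.070). It passed in the lower direction with median centring (-0.50, adjusted p = 0.011), quantile normalization (-0.54, adjusted p = 0.0093), without vector library 1 (-0.51, adjusted p = 0.0087) and without LACTB library 2 (-0.49, adjusted p = 0.038). The transcript AC055854.1, annotated on the opposite strand over EGR3, was at 55.8 ± 4.26 and 81.4 ± 16.2, and no source used here says whether reads were counted by strand.

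The ratio of EGR2 to EGR1 within a library does not depend on how libraries were scaled. Its log2 value was -3.91, -3.98 and -3.75 with vector and -2.57, -2.29 and -2.31 with LACTB, a difference of 1.49. The groups did not overlap, which gives an exact two-sided permutation p = 0.1, the smallest that 3 against 3 libraries allow. Per kilobase of each gene's longest annotated transcript, EGR1 was the main EGR transcript in every library. EGR1 made up 78.9% ± 3.84 of the summed EGR level in vector and 73.4% ± 2.00 in LACTB libraries, EGR2 5.66% ± 0.215 and 14.9% ± 1.31, and EGR3 15.4% ± 3.67 and 11.7% ± 1.74 (SD, n = 3 each). The summed level of the 3 genes was 952 ± 160 and 952 ± 30.7 normalized counts per kb.

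All 3 NR4A receptor genes were lower. NR4A1 (chromosome 12, 52022832 to 52059507, plus strand), which is induced by many stimuli and acts in apoptosis and metabolism, held 2258, 2715 and 3016 in vector and 1009, 1227 and 1142 in LACTB libraries. The groups lay far apart. From 2663 ± 382 the mean dropped to 1126 ± 110, or 42.3% of the vector mean, and the log2 difference was -1.24 (SE 0.13, 95% interval -1.50 to -0.97, limma adjusted p = 9.2e-08). The 50 tested genes nearest to NR4A1 on the chromosome had a median difference of -0.37 (-0.27 with length and GC removed), and 68% of them passed in either direction. Their part in the NR4A1 result was not tested.

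NR4A3 (chromosome 9, 99821855 to 99866891, plus strand) was the least abundant of the 10 genes and had the largest difference. Its counts were 55.7, 127 and 70.3 in vector and 15.6, 12.8 and 19.0 in LACTB libraries. The vector libraries spread widely, with library 2 the highest, yet the groups did not overlap. Means were 84.3 ± 37.6 and 15.8 ± 3.11, and the log2 difference was -2.27 (SE 0.36, 95% interval -3.02 to -1.52, limma adjusted p = 2.4e-05). With 37.7 normalized counts added before the log in place of 1, the difference was -1.15. The gene passed the filter of 37.7 normalized counts through its vector level, since its LACTB mean lay below it, so its call and its place as the largest difference are not independent of the filter. Its adjusted p in the limma fit with no filter was 1.4e-07, and at the stricter filter of 5 CPM it was not tested.

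NR4A2 (chromosome 2, 156324432 to 156342348, minus strand), a factor needed for midbrain dopamine neurons, was at 1417, 2660 and 2305 in vector and at 1171, 1572 and 1433 in LACTB libraries. Vector library 1 lay below LACTB libraries 2 and 3, so the groups overlapped. The mean went from 2127 ± 640 to 1392 ± 204 and the log2 difference was -0.57 (with an SE of 0.18 and a limma adjusted p = 0.0101). This call was lost with equal column totals (adjusted p = 0.12), without trend and robust settings (0.072), without vector library 2 (0.10), without vector library 3 (0.098) and without LACTB library 1 (0.053). The 50 tested genes around NR4A2 had a median difference of 0.57, and of 0.053 with length and GC removed.

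Within the NR4A family the make-up also differed by group. NR4A1 took 52.8%, 41.6% and 48.0% of the summed NR4A level per kb with vector and 38.0%, 35.8% and 36.2% with LACTB. NR4A2 took 51.3% ± 5.32 and 62.9% ± 1.26, and NR4A3 1.23% ± 0.367 and 0.442% ± 0.109. The log2 ratio of NR4A2 to NR4A1, from counts not divided by length, was -0.67, -0.03 and -0.39 with vector. With LACTB it was 0.21, 0.36 and 0.33 (exact permutation p = 0.1, the smallest possible). The sign of this ratio depends on transcript length. The shares rest on the longest annotated transcript, of 4837 bases for NR4A1 and 3472 for NR4A2, and other transcripts were not tried. Per kb, NR4A2 took 56.8% and 51.1% in vector libraries 2 and 3, already more than NR4A1. The summed NR4A level was 1178 ± 255 and 637 ± 81.2 normalized counts per kb.

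**Figure D2:**
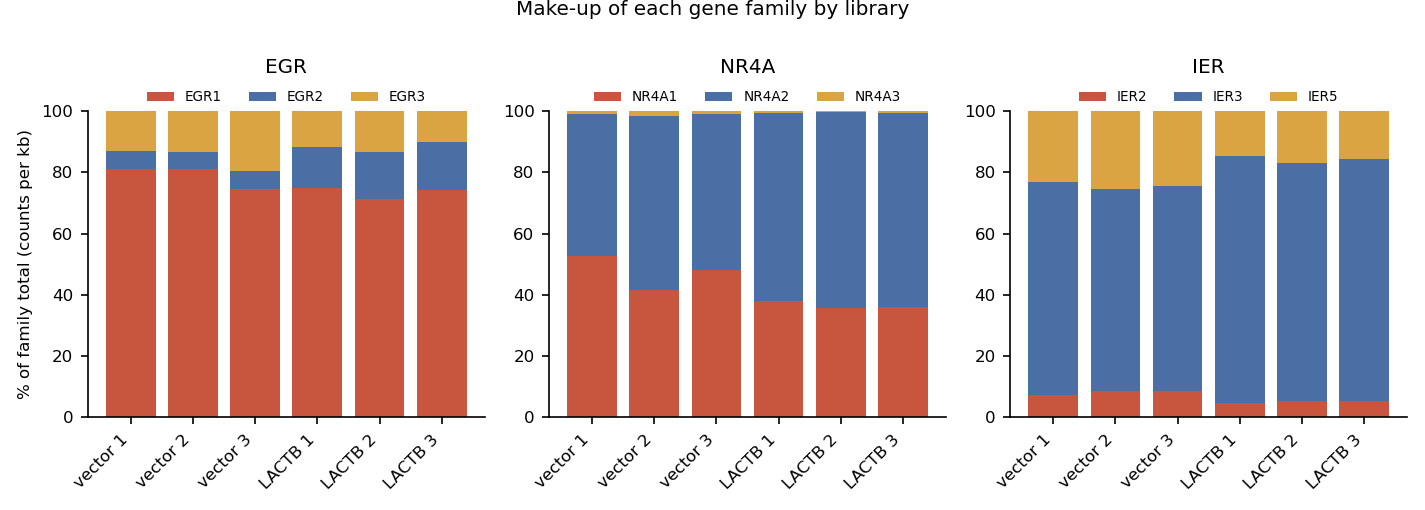
Share of each gene in the summed level of its group of 3 (normalized counts per kb of longest transcript, in percent), for each of the 6 libraries. EGR2 takes 5.66% ± 0.215 in vector and 14.9% ± 1.31 in LACTB libraries, NR4A1 falls below every vector share in all LACTB libraries, and IER3 takes 67.5% ± 1.89 and 79.1% ± 1.49.

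The 3 IER genes split. The longest annotated transcript of each has 1 exon. IER2 (chromosome 19, 13150415 to 13154908, plus strand), a nuclear protein linked to cell motility, was at 975, 1179 and 1294 in vector and at 724, 680 and 650 in LACTB libraries. Every vector value exceeded every LACTB value. Means were 1149 ± 161 and 685 ± 37.1, and the log2 difference was -0.74 (with an SE of 0.14 and a limma adjusted p = 0.00014). Once length and GC were taken out it was -0.42 (adjusted p = 0.0022). The 50 tested genes around IER2 had a median difference of -0.23, and of 0.084 with length and GC removed.

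IER5 (chromosome 1, 181088712 to 181092899, plus strand), which works with the phosphatase PP2A on the heat shock factor HSF1, was at 4391, 4936 and 5132 in vector and at 3121, 3016 and 2671 in LACTB libraries. The groups were well separated and each varied by about 8% around its mean. The mean fell to 60.9% of the vector mean, from 4820 ± 384 to 2936 ± 236, and the log2 difference was -0.71 (with an SE of 0.11 and a limma adjusted p = 2.3e-05). Genes around IER5 had a median difference of 0.36 in a window of 50 tested genes, and of -0.012 with length and GC removed. Across the 6 libraries IER2 and IER5 were the closest pair among the 10 genes, with a root mean square distance of 0.063 between their log2 values centred on each gene's mean.

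IER3 (chromosome 6, 30743199 to 30744554, minus strand), a survival regulator also known as IEX-1 and a known NF-kB and p53 target, did not pass. It was at 4279, 4146 and 4554 in vector and at 5587, 4483 and 4306 in LACTB libraries. LACTB library 1 stood above the other 5, and the remaining LACTB values lay within the vector range. The log2 difference was 0.14 (SE 0.12, 95% interval -0.11 to 0.38, limma adjusted p = 0.33). It passed in the higher direction with equal column totals (0.33, adjusted p = 0.020), quantile normalization (0.29, adjusted p = 0.030) and after removal of length and GC (0.56, adjusted p = 0.00018). IER3-AS1, the antisense transcript over IER3, had means of 6.43 and 1.22 normalized counts.

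Set against IER3 within a library, which removes the scaling, both other IER genes were lower in all LACTB libraries. From counts not divided by length, the log2 ratio of IER5 to IER3 was 0.04, 0.25 and 0.17 in vector and -0.84, -0.57 and -0.69 in LACTB libraries. That of IER2 to IER3 was -2.13, -1.81 and -1.82 and then -2.95, -2.72 and -2.73. Neither pair of groups overlapped (exact permutation p = 0.1 each, the smallest possible). IER3 made up 67.5% ± 1.89 of the summed IER level per kb in vector and 79.1% ± 1.49 in LACTB libraries.

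BTG2 (chromosome 1, 203305491 to 203309602, plus strand) was at 768, 797 and 704 in vector and at 504, 464 and 301 in LACTB libraries. LACTB library 3 was the lowest, and no LACTB value reached the vector range. Means were 756 ± 47.5 and 423 ± 107, and the log2 difference was -0.87 (SE 0.17, 95% interval -1.23 to -0.51, limma adjusted p = 0.00027). The median difference of the 50 tested genes around it was -0.047 (-0.074 with length and GC removed).

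**Figure D3:**
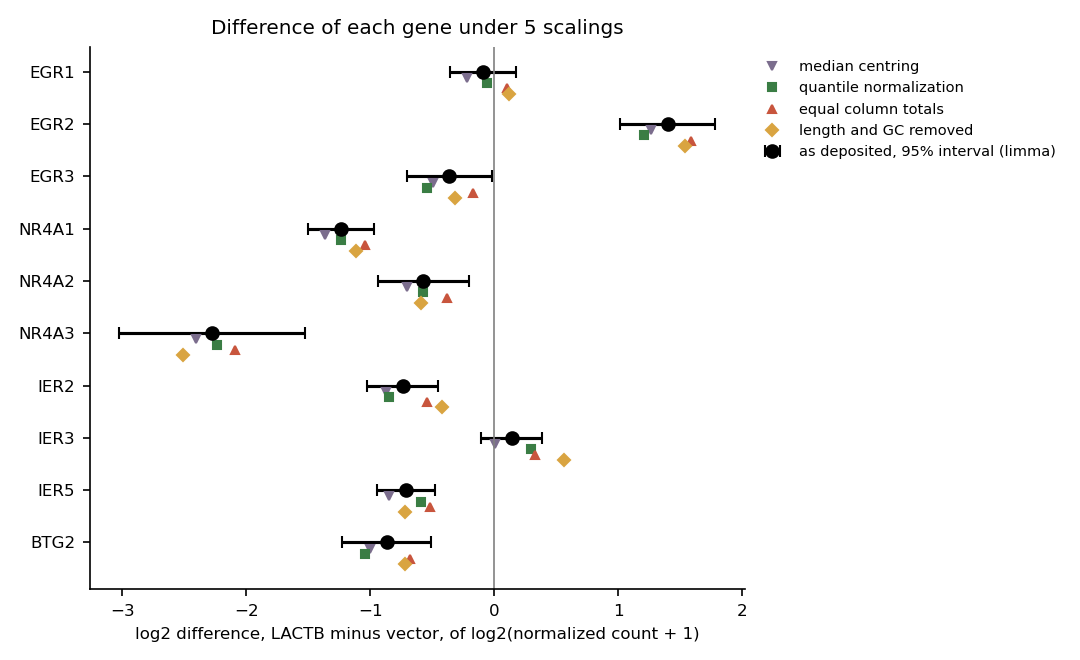
Log2 difference (LACTB minus vector) of each gene with its 95% interval in black, and the same difference after median centring, quantile normalization, equal column totals and removal of transcript length and GC. EGR2 stays above 0 and NR4A1, NR4A2, NR4A3, IER2, IER5 and BTG2 stay below 0 in all 5, while EGR1 lies on both sides of 0.

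Per kilobase of longest transcript, the levels of the 10 genes spanned from IER3 at 3205 ± 154 to NR4A3 at 14.8 ± 6.59 normalized counts per kb in vector cells. Below IER3 came IER5 (1151 ± 91.7), EGR1 (754 ± 152), NR4A2 (613 ± 184), NR4A1 (551 ± 79.0), IER2 (392 ± 55.0), BTG2 (279 ± 17.5), EGR3 (144 ± 24.6) and EGR2 (53.7 ± 6.93). EGR1, NR4A2 and NR4A1 were not separated beyond their spread. In LACTB cells IER3 was again the highest, at 3550 ± 514, followed by IER5 (701 ± 56.3) and EGR1 (699 ± 13.5), whose values overlapped. NR4A2 followed at 401 ± 58.7, then IER2 (233 ± 12.6) and NR4A1 (233 ± 22.7), which also overlapped, and then BTG2 (156 ± 39.6), whose range held every EGR2 value. EGR2 at 142 ± 16.6 came before EGR3 at 112 ± 18.1 in the order of LACTB means, the reverse of the vector order, though 1 EGR3 library lay above 1 EGR2 library. NR4A3 closed the order at 2.77 ± 0.545. EGR1 was above 74.8% of tested genes in vector and above 74.4% in LACTB cells on this scale, and EGR2 above 22.4% and 38.7%.

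**Figure D4:**
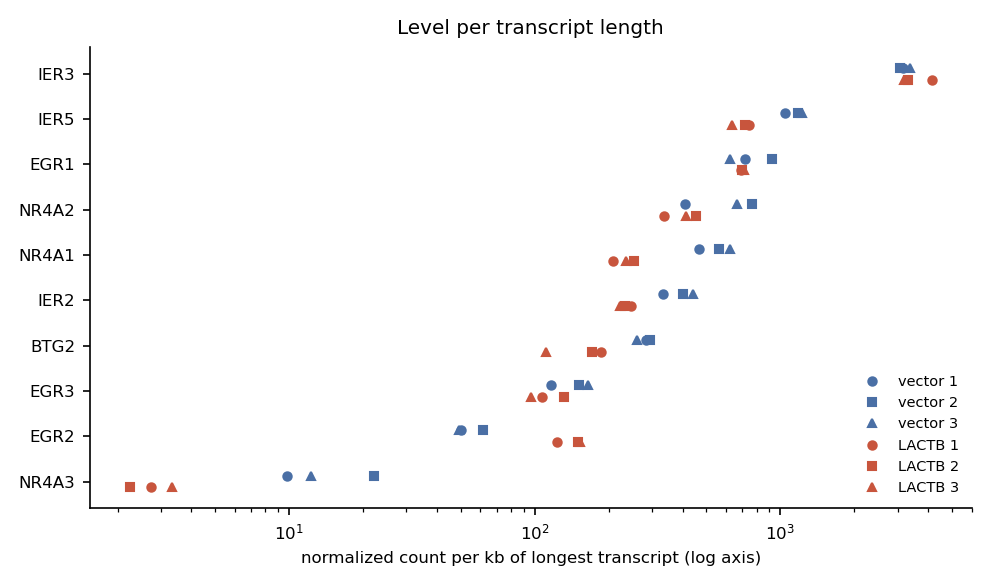
Level of each gene per kb of its longest annotated transcript (log axis) in each of the 6 libraries, ordered by the vector mean. IER3 is highest and NR4A3 lowest in both groups, and EGR2 is the gene whose LACTB values all lie to the right of its vector values.

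The genes most like EGR1 over the 6 libraries, by the distance of centred log2 values, were C12orf66 (0.047), AP1S3 (0.049) and SHC4 (0.052). Each of these had its highest value in vector library 2 and its lowest in vector library 3, as EGR1 did, and none passed the test. They were picked for likeness to EGR1 in the same 6 libraries, so these traits are not separate results. Nearest to NR4A3, the gene with the largest difference, were the transcripts AL627171.2 (0.25) and AC110285.2 (0.25).

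Of the 50 other immediate early genes listed, 47 were tested, of which 11 rose, 18 fell and 18 did not pass. Their median log2 difference was -0.19. The percentage called was 61.7%, beside 51.9% of all tested genes. The division depended on the scaling, with 15 higher and 14 lower under equal column totals, 9 and 24 after median centring, 11 and 20 after quantile normalization, and 11 and 16 with length and GC removed. DUSP2, a phosphatase of nuclear MAP kinases, fell from 72.8 ± 20.4 to 12.9 ± 6.44. It too passed the filter only through its vector level, and its log2 difference of -2.48 was -1.12 with 37.7 normalized counts added before the log. THBS1, the matrix protein thrombospondin-1, rose from 6031 ± 1377 to 24508 ± 3958. The following genes were singled out after their values were seen. Among the AP-1 genes FOS fell by 1.20 and JUNB by 1.36 on the log2 scale (limma adjusted p = 4.8e-06 and 5.8e-09), JUN rose by 0.77 (adjusted p = 3.0e-05), JUND fell by 0.69 (adjusted p = 4.0e-05), FOSL2 rose by 0.41 (adjusted p = 0.015), and FOSB (-0.01) and FOSL1 (0.14) did not pass. IER5L, the IER5 paralogue, fell by 0.81, while the BTG2 relative BTG1 differed by -0.25 and did not pass (adjusted p = 0.059). CCN1 and CCN2, secreted matricellular proteins induced through SRF and YAP, rose by 1.23 and 1.16. EGR4, the remaining EGR gene, had means of 2.88 and 2.37 and was not tested.

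Partners of the EGR and NR4A factors went in both directions. Of 11 tested 5 rose and 3 fell (72.7% called, median 0.33), beside 51.9% called over all tested genes. The counts were 8 and 2 under equal column totals and 5 and 1 with length and GC removed (median 0.07). NAB2, a corepressor that binds EGR proteins and is itself an EGR target, stood at 5137, 5187 and 5521 in vector and at 2663, 2481 and 2750 in LACTB libraries, a log2 difference of -1.01 (SE 0.11, limma adjusted p = 1.5e-07). Its groups did not overlap. NCOA2, a nuclear receptor coactivator, rose from 322 ± 83.8 to 668 ± 66.7. With length and GC removed the differences of NAB2 and NCOA2 were -0.65 and 0.54, beside -1.01 and 1.08 as deposited. Singled out after its values were seen, the other corepressor NAB1 differed by 0.33 and did not pass (adjusted p = 0.052). Of 15 tested genes listed as EGR1 targets 8 rose and 5 fell (86.7% called, median 0.31), beside 51.9% called over all tested genes. The counts were 8 and 3 under equal column totals, 6 and 5 after median centring and 5 and 3 with length and GC removed (median 0.19). THBS1, given above, is on this list as well.

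For the transcription factors that act on immediate early promoters, the count in each direction depended on the scaling. Of 18 tested SRF, TCF, MRTF and CREB regulators 9 rose and 1 fell (55.6% called, median 0.27). The percentage called over all tested genes was 51.9%. The counts were 6 and 4 after median centring and 5 and 3 with length and GC removed (median 0.07). MRTFB, an actin-regulated SRF coactivator, rose from 397 ± 109 to 923 ± 48.9 (a log2 difference of 1.25, or 0.73 with length and GC removed) and the acetyltransferase gene EP300 from 1403 ± 467 to 2856 ± 224. SRF itself, named after its values were seen, stood at 2716, 3040 and 3274 in vector and 2905, 2499 and 2495 in LACTB libraries, which overlap, and did not pass (-0.19, limma adjusted p = 0.17). Cytoskeletal targets of MRTF and SRF rose in 10 of 14 tested cases and fell in 1 (78.6% called, median 0.38). After median centring 5 were higher and 1 was lower. TAGLN, an actin-binding smooth muscle protein, rose from 79.7 ± 12.6 to 493 ± 89.8 and the tropomyosin gene TPM1 from 7957 ± 857 to 25950 ± 2296.

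In the ERK cascade and its nuclear kinases 7 of 20 tested genes rose and 5 fell (60% called, median 0.05). Over all tested genes 51.9% were called. The receptor gene EGFR rose by 1.41 and the exchange factor gene SOS1 by 1.09 on the log2 scale, and SOS1 no longer passed after removal of length and GC (0.44, adjusted p = 0.11). With equal column totals 10 rose and 2 fell. ERK feedback genes rose in 4 and fell in 5 of 15 tested cases (60% called, median 0.09). The counts became 7 and 4 under equal column totals and 3 and 6 after median centring. The receptor signalling inhibitor gene SPRY1 fell by 2.48 and the ETS factor gene ETV4 by 1.45.

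Genes that share regulators with IER3, BTG2 and IER5 gave different counts. NF-kB targets fell in 10 of 13 tested cases and rose in 1 (84.6% called, median -0.79), beside 51.9% called over all tested genes. With length and GC removed 7 of 12 fell and 1 rose (median -0.43). The chemokine gene CXCL1 fell from 652 ± 68.4 to 140 ± 30.7, and CCL2 rose from 2011 ± 206 to 7159 ± 519. Of 18 p53 targets 6 rose and 6 fell (66.7% called, median 0.02). The counts were 7 and 3 under equal column totals and 3 and 7 after median centring. The cytokine gene GDF15 fell by 1.31 and the apoptosis gene BBC3 by 1.20, and with length and GC removed the differences were -0.81 and -0.59. Heat shock genes fell in 3 of 10 tested cases and none rose (30% called, median -0.10). Under other settings 2 rose with equal column totals, 2 with length and GC removed and 3 with quantile normalization. HSPA1A, a stress-inducible HSP70 gene with a near-identical copy, fell by 0.78 and the mitochondrial chaperonin gene HSPE1 by 0.78, or -0.45 and -0.49 with length and GC removed.

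The deadenylation and decay genes tied to BTG2 and to AU-rich transcripts were mixed. In the BTG and TOB family with CCR4-NOT 6 of 18 tested genes rose and 2 fell (44.4% called, median 0.20). Over all tested genes 51.9% were called. The counts were 10 and 1 under equal column totals and 5 and 4 after median centring. With length and GC removed they were 3 and 3, and the median was -0.03. CNOT4 rose from 352 ± 74.0 to 691 ± 91.8 (a log2 difference of 0.98, or 0.57 with length and GC removed), and PAN2, a poly(A) nuclease subunit, fell from 1666 ± 38.1 to 936 ± 118. Of 12 AU-rich element binding and decay genes 4 rose and 1 fell (41.7% called, median 0.15), against 6 and 0 under equal column totals and 2 and 4 with length and GC removed, when the median was -0.04. The exonuclease gene XRN1 rose by 0.84 and the decapping gene DCP1A by 0.77, and XRN1 no longer passed after removal of length and GC (0.13, adjusted p = 0.56), which left DCP1A at 0.39.

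**Figure D5:**
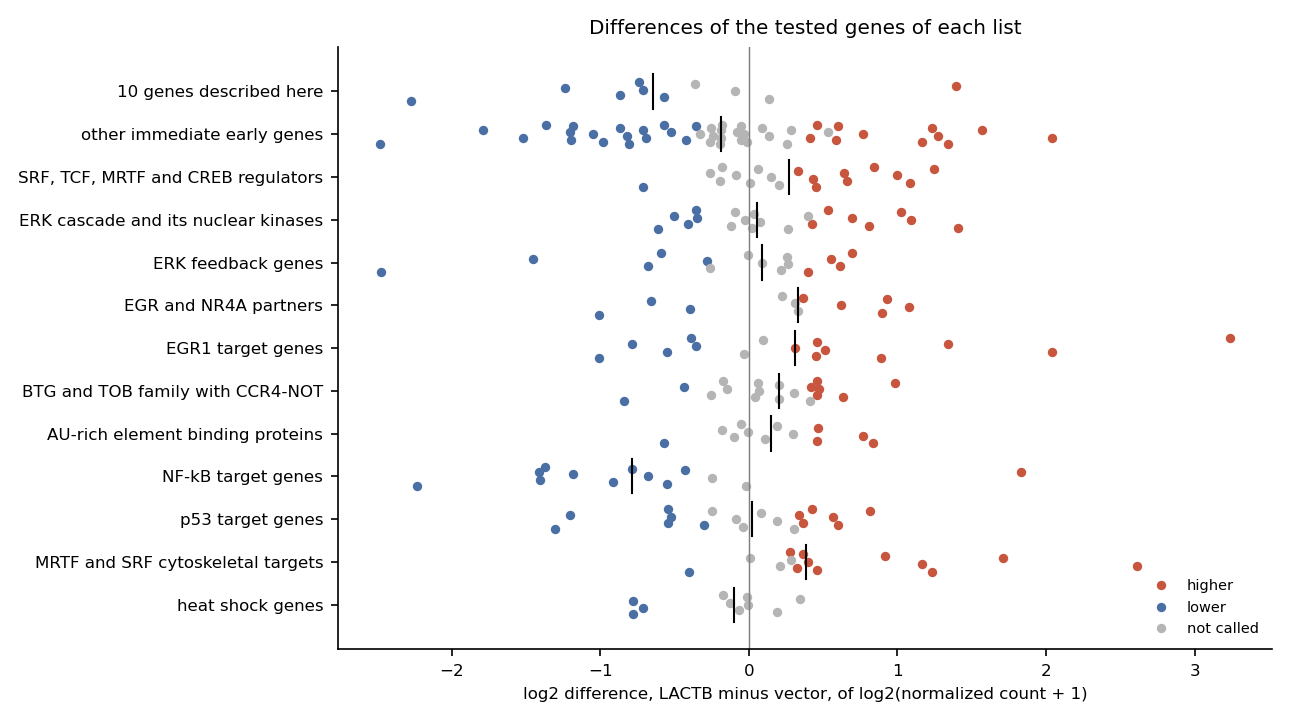
Log2 difference (LACTB minus vector) of every tested gene in the 10 genes described here and in 12 other lists, with red for higher, blue for lower and grey for not called, and a black bar at each list's median. The 10 genes have a median of -0.64, NF-kB targets -0.79 and the MRTF and SRF cytoskeletal targets 0.38.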

How the data were processed

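The deposited table holds normalized read counts, a signal unit, for 24489 rows and 6 libraries. HISAT2 and hg38 were used, per the submitters' processing notes. Counter, annotation, strandedness and normalization by the authors: not given in the sources used here. Values below 1e-10 were set to 0, and of 9 repeated symbols the row with the higher mean was kept. The best single step per library left 31.6% to 69.5% of low values whole (tolerance 0.05, 10% by chance). LACTB libraries 1 and 2 stood at 32.3% and 31.6%, LACTB library 3 at 69.5% and the vector libraries at 59.4% to 66.9%. Reads were therefore not recovered, read depth is unknown and count models were left aside. The design had foreseen counts or normalized values, and its branch for normalized values was applied.

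Values were taken as log2(value + 1), a scale that understates changes of low genes. The 12939 genes whose mean reached 1 CPM (37.7 normalized counts) entered limma (version 3.58.1, R version 4.3.3, with trend and robust options, group only, 6 libraries). The fit was also run on simulated data with independent noise and few changed genes. That run does not give the rate of false calls here, where 51.9% of tested genes were called. The same scripts gave the alternatives of the closing section. Positions, longest transcripts and GC came from GENCODE 29, and motifs from RefSeq promoter windows. Figures used matplotlib 3.10.9.

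The 10 genes and all lists were chosen with earlier results of these data known. All 10 genes are named, of each other list the 2 passing genes with the largest difference, and the 3 nearest genes of EGR1 and of the gene with the largest difference. Genes named outside this rule are marked, with the following exceptions. LACTB, the markers NES, VIM, CD44, OLIG2, GFAP, AQP4 and PTPRC, and the overlapping transcripts AC055854.1 and IER3-AS1 carry no mark. Of the genes this rule takes, 2 are not reported here. Of 244 genes in the other lists 239 were in the table and 215 were tested. The rest were not analysed here.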

Additional observations from a re-analysis of the deposited data

How the results depend on the processing

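As reported, 7 of the 10 genes passed (1 higher, 6 lower), as did 6721 of all tested genes and 134 of the 215 tested genes of the other lists. With a minimum of 2-fold, 3 of the 10 genes passed (1 higher, 2 lower), 1400 of all genes and 38 of the other lists' genes. The number of higher genes among the 10 was 2 with quantile normalization, equal column totals and length and GC removed, since IER3 then passed. Leaving out 1 library at a time gave 6 to 8 called genes (5 to 7 lower, 1 higher), 5344 to 7341 calls over all genes and 114 to 144 in the other lists.

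EGR2 (1.21 to 1.59), NR4A1 (-1.37 to -1.04), IER2 (-0.87 to -0.42), IER5 (-0.85 to -0.52) and BTG2 (-1.04 to -0.64) kept direction and call in all 16 alternative fits, and NR4A3 (-2.52 to -1.15) in the 15 that tested it. EGR1 changed sign with equal column totals (0.10), length and GC removed (0.12) and without vector library 2 (0.063), with a range of -0.22 to 0.063 when 1 library was left out, and passed in none of the 16 (adjusted p 0.15 to 0.70). The cause was not tested.

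The replicate numbers were not taken to pair the libraries, since deviations of same-numbered libraries correlated at 0.02, 0.18 and 0.003. Under a replicate block 8 of the 10 genes passed, EGR3 being added (adjusted p = 0.046), and 6879 of all genes. Depth is unknown, so precision rests on 3 libraries a group. Libraries also differed in their low values, as given under processing, and the part of this in the p-values was not tested.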
